A study of Mus musculus with 35 samples.

Results

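The RNA of 10 genes that hepatocytes around the central vein express under Wnt signalling was read in the livers of 21 mice. The genes were a fixed list of names, drawn up with earlier results of these data known, as were the lists read beside them. Glul, Oat, Slc1a2 and Rhbg handle ammonia and glutamate, and Cyp2e1 and Cyp1a2 are cytochromes. Axin2, Lgr5, Rnf43 and Tbx3 belong to the Wnt response itself. All 10 were found among the 55413 genes counted, and all 10 passed the filter on low counts, as did 15297 genes in all.

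Blood enters the liver lobule at the portal veins and leaves at the central vein, and hepatocytes differ along that path. Endothelial cells at the central vein secrete Wnt ligands and R-spondins, which stabilise beta-catenin in the neighbouring hepatocytes. Beta-catenin with its TCF/LEF partners then turns on glutamine synthesis, ammonia uptake and several cytochromes, while the periportal cells make urea and glucose. Axin2, Rnf43 and their relatives are switched on by the same signal and dampen it.

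The mice were C57Bl6, and the series concerns an antisense oligonucleotide (ASO, a synthetic strand complementary to a chosen transcript) against Smyd3, a lysine methyltransferase, in liver tumours raised with diethylnitrosamine (DEN, a liver carcinogen). The Smyd3-ASO group (6 mice) and the control-ASO group (6 mice) had DEN at 25 mg/kg on day 14 after birth, then their ASO at 50 mg/kg, injected 2 times a week into the abdomen from day 133, and were harvested on day 260. The P133 group (4 mice) had the same DEN injection and no ASO, and was harvested on day 133. The untreated group (5 mice) had neither DEN nor ASO and was harvested on day 260. All DEN groups are labelled as tumour with the cell type hepatocellular carcinoma, and pieces of liver were homogenised, so tumour and other liver can share a sample. Sequencing covered only the 3' ends of polyadenylated RNA, so read numbers do not grow with transcript length. The 35 libraries gave 1 column of counts per mouse. Smyd3-ASO mice had 14 libraries in all, control-ASO mice 12, P133 mice 4 and untreated mice 5. Where an ASO mouse had several, the authors merged them, while each P133 and untreated mouse had 1. The number of libraries per mouse thus differs along with ASO. P133 and untreated mice differ in both DEN and age, and each ASO group differs from untreated mice in both DEN and ASO. Each ASO group differs from P133 mice in both age and ASO. Within each of these comparisons the parts cannot be told apart.

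To show the kind of control region that TCF/LEF proteins read, the 300 bases around the transcription start (250 before to 50 after) were taken from RefSeq, build GRCm38.p6, in which 7 of the 10 genes were matched, Rnf43 with 2 promoters. Lgr5, Tbx3 and Rhbg are named only. The motif CTTTGAT or CTTTGAA was searched on both strands and was present in 3 of these 8 promoters, against 8.65% of all 32851 promoters of the same length. The 3 with a motif are shown with Glul, the best known of the pericentral genes, which held none in this window. Capitals mark the motif, which reads as its reverse complement (ATCAAAG or TTCAAAG) where it lies on the other strand. The Slc1a2 start in RefSeq lies inside the GENCODE gene rather than at its end.
Slc1a2, chr2:102706188-102706487, plus strand: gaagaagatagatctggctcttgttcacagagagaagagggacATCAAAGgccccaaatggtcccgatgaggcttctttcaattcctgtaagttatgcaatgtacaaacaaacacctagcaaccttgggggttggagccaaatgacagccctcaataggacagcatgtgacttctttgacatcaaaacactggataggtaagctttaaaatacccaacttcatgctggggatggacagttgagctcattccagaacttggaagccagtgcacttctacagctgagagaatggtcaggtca
Cyp2e1, chr7:140763569-140763868, plus strand: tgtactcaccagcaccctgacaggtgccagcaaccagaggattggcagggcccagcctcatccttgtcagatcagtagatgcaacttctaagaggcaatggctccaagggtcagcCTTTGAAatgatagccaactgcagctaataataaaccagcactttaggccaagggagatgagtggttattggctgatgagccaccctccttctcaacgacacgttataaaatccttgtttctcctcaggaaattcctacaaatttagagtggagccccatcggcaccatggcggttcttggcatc
Cyp1a2, chr9:57683606-57683905, minus strand: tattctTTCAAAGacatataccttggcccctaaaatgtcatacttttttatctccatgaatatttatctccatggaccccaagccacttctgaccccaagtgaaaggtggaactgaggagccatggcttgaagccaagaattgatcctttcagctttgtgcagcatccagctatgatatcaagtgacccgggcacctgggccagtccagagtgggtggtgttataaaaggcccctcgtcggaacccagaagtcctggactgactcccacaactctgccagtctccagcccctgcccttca
Glul, chr1:153899679-153899978, plus strand: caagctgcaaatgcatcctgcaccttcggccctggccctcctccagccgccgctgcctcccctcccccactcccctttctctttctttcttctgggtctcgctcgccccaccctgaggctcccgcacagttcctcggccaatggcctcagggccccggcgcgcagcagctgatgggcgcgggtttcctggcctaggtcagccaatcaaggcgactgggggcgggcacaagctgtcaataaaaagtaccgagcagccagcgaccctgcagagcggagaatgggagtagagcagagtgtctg
The motif began at position -207 from the start in Slc1a2, -135 in Cyp2e1 and -244 in Cyp1a2. A match is a description of these letters, and enhancers outside the window were not searched.

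Total counts ran from 6358080 to 20258619 in Smyd3-ASO, from 6789715 to 13805881 in control-ASO, from 4556484 to 6447397 in P133 and from 10186780 to 13116012 in untreated mice. Levels are in counts-per-million units (CPM) after TMM scaling over all 21 mice, and no level is set against that of another gene. The untreated libraries were scaled most, with TMM factors of 0.567 to 0.784, against 0.983 to 1.42 in the DEN groups. Smyd3 averaged 0.325 CPM in Smyd3-ASO and 3.87 CPM in control-ASO mice (log2 -3.65, SE 0.47, adjusted p = 1.475e-04), which matches the labels. The hepatocyte marker list (6 genes, all measured) summed to 17500 to 36000 CPM in Smyd3-ASO, 48400 to 68600 in control-ASO, 38300 to 41100 in P133 and 50000 to 102000 in untreated mice. Alb, a gene of this list, averaged 20130, 46240, 28100 and 60010 CPM in the same order, most of each sum. The defining genes of the list were abundant in every group, which goes with the tissue label. Bile duct markers (3 of 5 measured) summed to 42 to 66.2, 54.5 to 125, 21.5 to 49.8 and 14.6 to 30.5 CPM in the same order, and Krt7 and Krt19 were below the filter. Erythroid markers (3 genes) summed to 427 to 1010, 1620 to 4220, 1010 to 1420 and 2400 to 6170 CPM in that order. Neither of these lists moved as one in Smyd3-ASO over control ASO. The globins Hbb-bs and Hba-a1 were at log2 -2.18 and -1.89, and Alas2 at 0.72. Of the bile duct markers Epcam was at 1.46, Spp1 at -0.80 and Sox9 at -0.55.

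Glul, glutamine synthetase, which joins ammonia to glutamate (ENSMUSG00000026473, chr1:153899944-153909723, plus strand, GENCODE vM21 on mm10), had a lowest, median and highest value of 219, 349.8 and 738 CPM in Smyd3-ASO mice and 83.8, 163 and 302 CPM in control-ASO mice. It stood at 487.5, 538, 464 and 615 CPM in the 4 P133 mice and at 457, 459.5, 545, 512 and 445.5 CPM in the 5 untreated mice. All control-ASO mice lay below all P133 and all untreated mice, and the Smyd3-ASO mice spread across both ranges.

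Oat, ornithine aminotransferase (ENSMUSG00000030934, chr7:132557478-132576398, minus strand), had a lowest, median and highest value of 127, 243 and 332 CPM under Smyd3-ASO and of 36.4, 60.7 and 172.5 CPM under control ASO. P133 mice had 129.7, 243, 135 and 274 CPM and untreated mice 232, 190.5, 252, 274 and 176.5 CPM. A single control-ASO mouse, the highest, entered the range of the Smyd3-ASO mice, and none reached an untreated mouse.

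Slc1a2, a glutamate transporter (ENSMUSG00000005089, chr2:102658659-102790784, plus strand), ran from 14.7 over a median of 39.0 to 117.5 CPM in Smyd3-ASO mice, and from 12.2 over 24.6 to 34.8 CPM in control-ASO mice. In P133 mice it was 60.2, 73.1, 69.0 and 93.2 CPM, and in untreated mice 48.8, 34.9, 50.7, 48.3 and 35.04 CPM. The Smyd3-ASO mice split widely, with 3 mice from 14.7 to 22.5 CPM and 3 from 55.4 to 117.5 CPM, and the highest control-ASO mouse fell just short of the lowest untreated one.

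Rhbg, an ammonia transporter of the Rhesus family (ENSMUSG00000104445, chr3:88242874-88254709, minus strand), ran from 3.41 over a median of 5.39 to 9.48 CPM under Smyd3-ASO and from 4.17 over 5.95 to 9.82 CPM under control ASO. P133 mice had 11.2, 6.96, 9.32 and 8.69 CPM, and untreated mice 22.2, 20.3, 20.1, 22.2 and 8.69 CPM. The ASO groups overlapped almost wholly, and 4 of 5 untreated mice lay above every other mouse of the series. Rhbg shares exons on the same strand with Gm38392, whose mean levels (5.91, 6.93, 9.07 and 18.8 CPM in the order of the groups) nearly equal those of Rhbg, so the reads of the pair cannot be told apart.

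Cyp2e1, the ethanol-oxidising cytochrome (ENSMUSG00000025479, chr7:140763739-140774987, plus strand), had a lowest, median and highest value of 1397, 2667 and 3722 CPM in Smyd3-ASO and 480.7, 1026 and 2017 CPM in control-ASO mice. P133 mice stood at 2317, 2639, 2780 and 3526 CPM, and untreated mice at 4757, 3804, 4882, 3916 and 2569 CPM. Every control-ASO mouse was below every P133 and every untreated mouse, while the Smyd3-ASO mice overlapped all other groups.

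Cyp1a2, a cytochrome that oxidises caffeine and aromatic amines (ENSMUSG00000032310, chr9:57676937-57683703, minus strand), had a lowest, median and highest value of 135, 337 and 381 CPM in Smyd3-ASO and 45.6, 96.5 and 263 CPM in control-ASO mice. P133 mice had 522, 1127, 547 and 609 CPM, and untreated mice 1021, 1367, 1252, 1290 and 662 CPM. All 12 ASO mice, the highest at 381 CPM, lay below all 9 mice without ASO, the lowest at 522 CPM. With library totals in place of TMM, 2 of the 12 exceeded the lowest mouse without ASO (highest 446, lowest 410.3 CPM).

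Axin2, a scaffold of the complex that destroys beta-catenin and itself a Wnt target (ENSMUSG00000000142, chr11:108920349-108950783, plus strand), was sparse, at 28 to 144 counts in a Smyd3-ASO mouse and 2 to 26 counts in any other. Its lowest, median and highest values were 1.59, 2.87 and 5.59 CPM under Smyd3-ASO and 0.495, 1.18 and 3.27 CPM under control ASO. P133 mice had 0.421, 3.05, 1.55 and 1.26 CPM and untreated mice 2.36, 1.304, 1.40, 1.45 and 0.936 CPM. The Smyd3-ASO mice reached highest, but all groups overlapped.

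Lgr5, a receptor for R-spondins that marks Wnt-responding cells (ENSMUSG00000020140, chr10:115450311-115587780, minus strand), had 16 to 105 counts in a Smyd3-ASO mouse and 1 to 50 counts in any other. It ran from 0.963 over a median of 2.97 to 5.82 CPM under Smyd3-ASO and from 0.0811 over 1.39 to 3.65 CPM under control ASO. P133 mice had 4.00, 3.05, 3.99 and 3.00 CPM and untreated mice 3.98, 5.93, 5.61, 4.50 and 2.27 CPM. Control-ASO mice were mostly low, with 1 of 6 inside the P133 range, and the Smyd3-ASO mice covered nearly the whole range of the series.

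Rnf43, a ubiquitin ligase that removes Frizzled receptors from the cell surface (ENSMUSG00000034177, chr11:87662722-87735539, plus strand), had lowest, median and highest values of 2.44, 7.28 and 9.37 CPM under Smyd3-ASO and 4.95, 5.99 and 8.94 CPM under control ASO. P133 mice had 1.89, 2.04, 3.11 and 1.90 CPM and untreated mice 4.41, 4.27, 7.64, 3.63 and 2.68 CPM. P133 mice were the lowest group, and only 1 Smyd3-ASO mouse came down to their range. A sense-intronic transcript, 1110028F11Rik, lies within the gene on the same strand without sharing an exon. It averaged 11.7, 12.3, 6.745 and 7.65 CPM in the order of the groups, also lowest in P133 mice. Whether reads of the pair were mixed was not tested.

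Tbx3, a T-box transcription factor (ENSMUSG00000018604, chr5:119670669-119684724, plus strand), had lowest, median and highest values of 4.51, 7.95 and 16.6 CPM under Smyd3-ASO and 2.597, 5.16 and 10.4 CPM under control ASO. P133 mice had 6.74, 4.07, 4.44 and 6.64 CPM and untreated mice 6.55, 8.89, 14.3, 7.98 and 7.89 CPM. The ranges of all groups overlapped, except that the P133 mice touched the untreated mice only at the lowest of these. An antisense transcript, Tbx3os1, overlaps its exons and had at most 45 counts in a mouse.

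**Figure D1:**
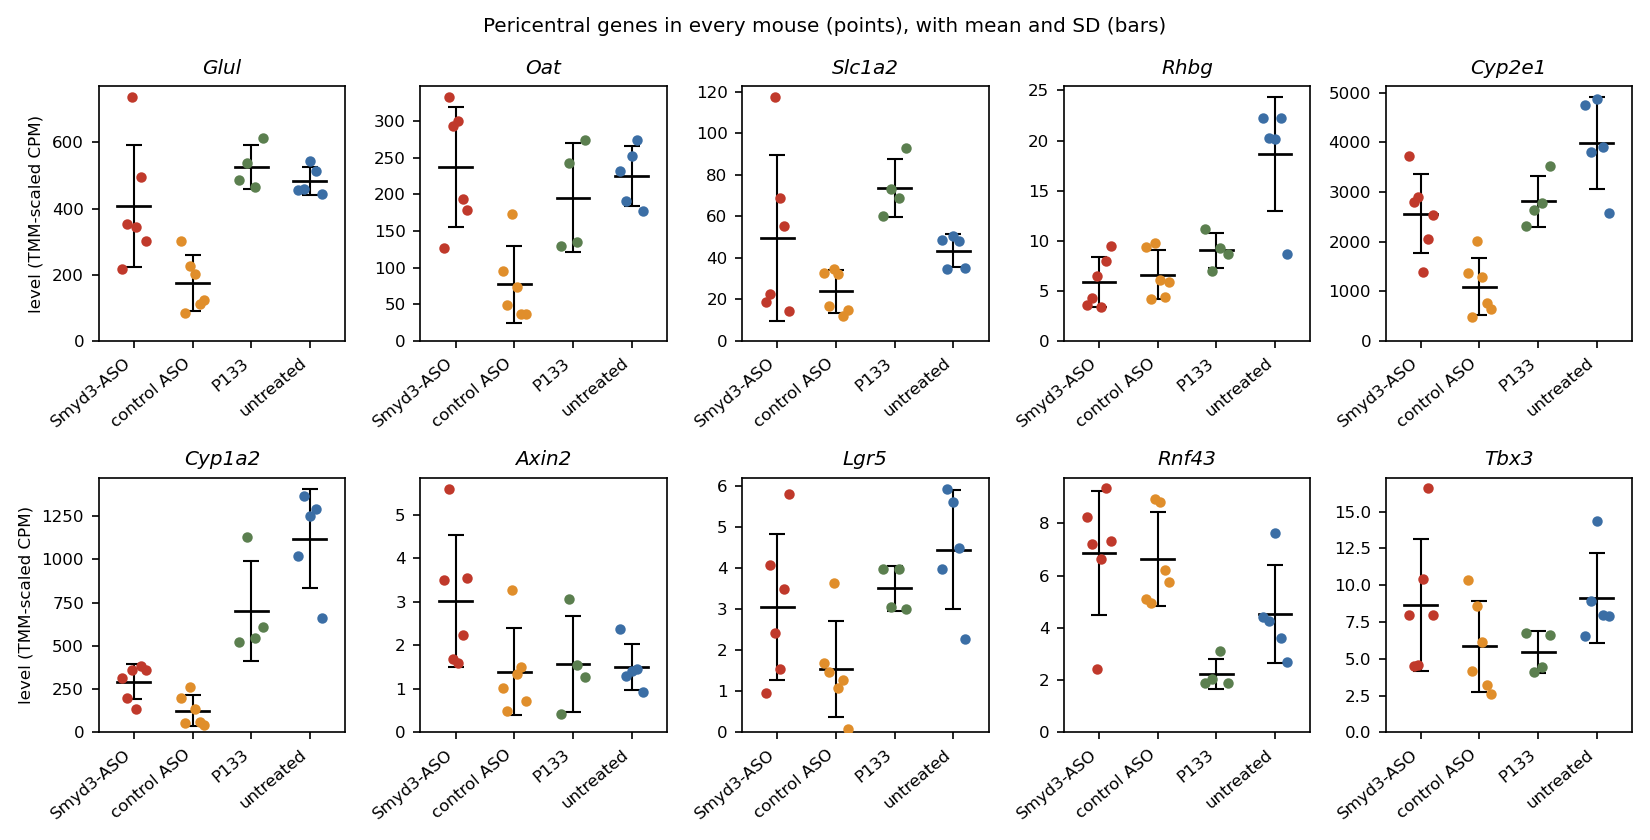
TMM-scaled level (CPM, linear axis from 0) of each of the 10 genes in every mouse, by group, with the mean and SD over mice as bars. Glul, Oat and Cyp2e1 were low in control-ASO mice, Cyp1a2 was low in both ASO groups, Rhbg was high in 4 of 5 untreated mice, and Rnf43 was low in P133 mice.

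Smyd3-ASO against control ASO compares livers of the same age and the same DEN history. RNA of Glul (glutamine synthesis), Oat (ornithine breakdown) and the cytochrome Cyp2e1 rose under Smyd3-ASO. The other 7 genes did not pass the threshold (adjusted p under 0.05, edgeR quasi-likelihood test adjusted over all genes tested). Of the 10 genes 3 were called, all upward, a share of 30% beside 26.1% of all genes called (13.3% upward and 12.9% downward), so the count alone lies close to the background. The median log2 change of the 10 was 1.11, against 0.01 for all genes. In whole liver RNA, fewer cells of a type and less RNA per cell cannot be told apart.

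Among the nitrogen genes, Oat averaged 237 ± 82.1 CPM in Smyd3-ASO and 77.1 ± 52.1 CPM in control-ASO mice (SD, n = 6 each), a 3.07-fold rise (log2 1.62, SE 0.39, adjusted p = 0.0095, edgeR). Glul averaged 409 ± 185 CPM and 175 ± 83.2 CPM in the same order, a 2.33-fold rise (log2 1.22, SE 0.34, adjusted p = 0.0194). Slc1a2 stood at log2 1.05 (SE 0.51, adjusted p = 0.145), where the split of the Smyd3-ASO mice gave a wide error. Rhbg stood at log2 -0.20 (95% interval -0.78 to 0.38, adjusted p = 0.645). Oat lies within the span of Fgfr2 on the same strand without sharing an exon, and Fgfr2 moved the other way (log2 -1.15, adjusted p = 0.00109).

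Of the cytochromes, Cyp2e1 averaged 2566 ± 792 CPM in Smyd3-ASO and 1093 ± 577 CPM in control-ASO mice, a 2.34-fold rise (log2 1.22, SE 0.33, adjusted p = 0.0154, edgeR). Cyp1a2 averaged 292 ± 101 CPM and 125.6 ± 89.8 CPM, a log2 change of 1.21 as large as that of Cyp2e1 but with a wider error (SE 0.45, adjusted p = 0.0622). In the Wnt response genes, Axin2 stood at log2 1.16 (SE 0.43, adjusted p = 0.0605), Lgr5 at 0.98 (SE 0.55, adjusted p = 0.202) and Tbx3 at 0.56 (SE 0.39, adjusted p = 0.301). Rnf43 stood at log2 0.05 (95% interval -0.48 to 0.58, adjusted p = 0.914). No gene of the 10 had groups that did not overlap, which 11.1% of all genes did.

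Cyp1a2 and Axin2 passed when single mice were left out. Without Smyd3-ASO mouse 4, Cyp1a2 was at log2 1.36 (adjusted p = 0.0459, edgeR) and Axin2 at 1.296 (adjusted p = 0.0459). Without control-ASO mouse 3 they were at 1.57 (adjusted p = 0.0189) and 1.58 (adjusted p = 0.0127), and Axin2 also passed without Smyd3-ASO mouse 3, at 1.29 (adjusted p = 0.0465). Glul missed the threshold when no low-count filter was used (adjusted p = 0.0529). Hepatocyte markers were lower in Smyd3-ASO mice for 4 of 6 genes, while Hnf4a (log2 -0.28) and Tat (0.88) were not called. The clock gene list summed to 44.3 to 94.8 CPM in Smyd3-ASO and 55.5 to 253 CPM in control-ASO mice, with 2 of 6 lower. The part of either in these values was not tested.

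**Figure D2:**
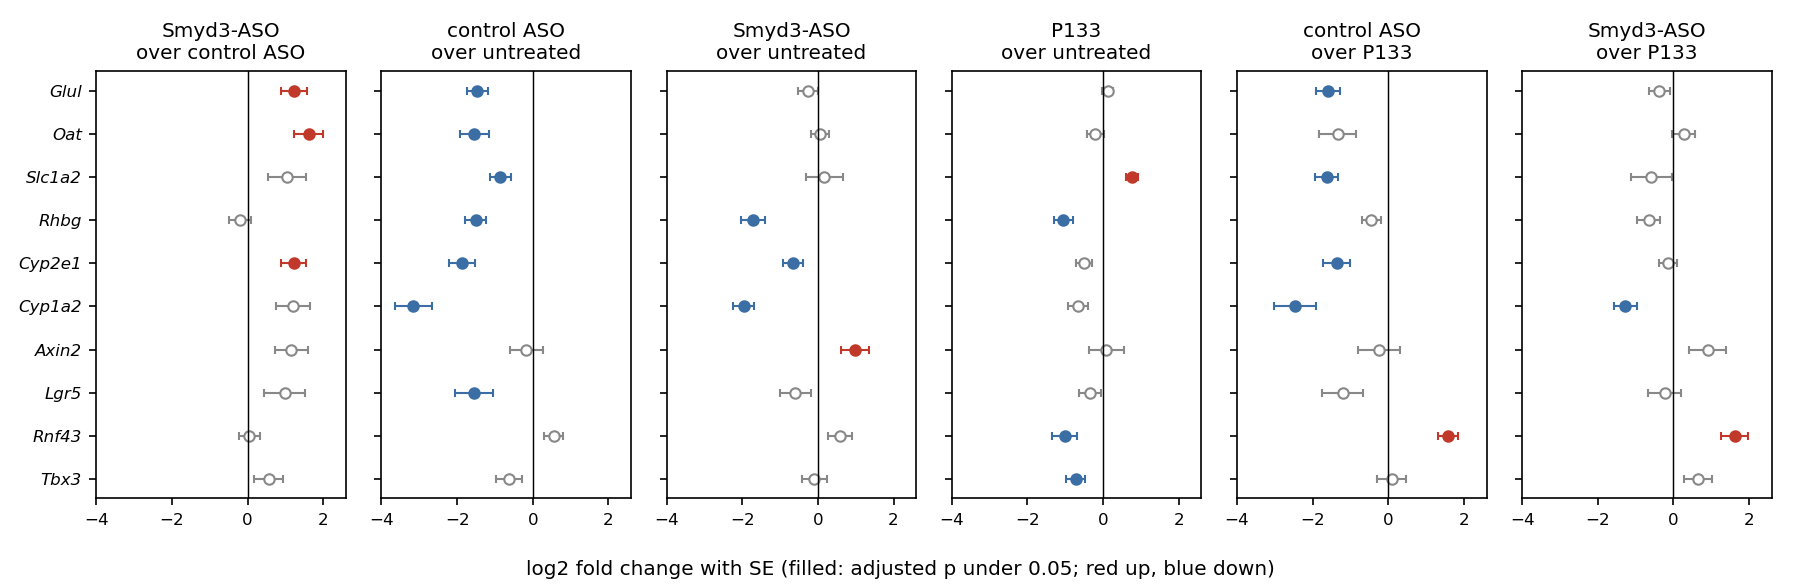
Log2 fold change with its standard error for the 10 genes in 6 comparisons, each named above its panel with the group over its comparator, where filled points passed an adjusted p of 0.05 (red up, blue down). The first panel lies mostly to the right of 0 and the second mostly to the left, and Cyp1a2 lies farthest left wherever an ASO group is set against mice without ASO. With library totals in place of TMM, signs change in all panels set against untreated mice and in the last, among them Axin2 and Tbx3 in the second.

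Control ASO against untreated asks how livers with DEN tumours under a control oligonucleotide differ from normal liver of the same age. Both cytochromes, all 4 nitrogen genes and Lgr5 fell, 7 of the 10 genes, and none rose. This share of 70% stands beside 45.9% of all genes called (23.7% upward and 22.2% downward). The median log2 change of the 10 was -1.49, against 0.06 for all genes. Groups did not overlap for 5 of the 10 (Glul, Oat, Slc1a2, Cyp2e1 and Cyp1a2), beside 27.6% of all genes.

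Cyp1a2 fell most, to 125.6 ± 89.8 CPM in control-ASO (SD, n = 6), against 1118 ± 286 CPM in untreated mice (n = 5), 8.91-fold lower (log2 -3.15, SE 0.49, adjusted p = 3.319e-04, edgeR). Cyp2e1 fell to 1093 ± 577 CPM, against 3986 ± 928 CPM, 3.65-fold lower (log2 -1.87, SE 0.33, adjusted p = 4.517e-04). The nitrogen genes had smaller log2 changes, and the difference between genes was not tested. Glul was 2.76-fold lower (log2 -1.47, SE 0.28, adjusted p = 8.786e-04), Oat 2.92-fold (log2 -1.55, SE 0.39, adjusted p = 0.00737) and Rhbg 2.83-fold (log2 -1.50, SE 0.28, adjusted p = 6.688e-04). Lgr5 was 2.95-fold lower (log2 -1.56, SE 0.50, adjusted p = 0.021) and Slc1a2 1.82-fold (log2 -0.86, SE 0.28, adjusted p = 0.0227). The remaining Wnt response genes did not pass, with Axin2 at log2 -0.17 (95% interval -1.03 to 0.70), Tbx3 at -0.64 (-1.31 to 0.04) and Rnf43 at 0.55 (0.05 to 1.06). So within the list the metabolic genes and Lgr5 fell, while the feedback genes Axin2 and Rnf43 were not called in either direction. Of 5 Wnt inhibitors measured outside the list, 2 fell and 3 were not called, a share of 40% beside 45.9% of all genes (22.2% downward). Those that fell were Nkd1 (log2 -1.49, adjusted p = 0.00164, edgeR) and Notum (-1.08, adjusted p = 8.519e-04).

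Scaling bears on every comparison with untreated mice. With library totals the median of all genes moved to log2 0.90, and 93.6% of calls were upward, against 51.6% upward with TMM. On that scale Cyp1a2, Cyp2e1, Glul and Rhbg remained lower, Rnf43 was higher (log2 1.42), and Oat (-0.72), Lgr5 (-0.72) and Slc1a2 (-0.04) lost their calls, each still below the shift of all genes. Axin2 (0.65) and Tbx3 (0.21) changed sign. Groups did not overlap for 2 of the 10 on that scale, where the share of all genes was not computed. Lgr5 missed the threshold without untreated mouse 2 (log2 -1.43, adjusted p = 0.054, edgeR) and Slc1a2 without untreated mouse 3 (-0.80, adjusted p = 0.0506). Tbx3 passed without control-ASO mouse 1 (-0.90, adjusted p = 0.0339) and Rnf43 without untreated mouse 3 (0.81, adjusted p = 0.0141). With all mice, Slc1a2 missed it without the filter on low counts (adjusted p = 0.0708) and with 1 fit over all groups (0.119), and Lgr5 without that filter (0.0536). Hepatocyte markers were lower in control-ASO mice for 3 of 6 genes and bile duct markers higher for 2 of 3. Of 6 clock genes Arntl (log2 2.95) and Per3 (2.01) were higher and none was lower. The clock genes summed to 55.5 to 253 CPM in control-ASO and 45.2 to 201 CPM in untreated mice. The part of these markers in the values was not tested.

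Smyd3-ASO against untreated shows which of these genes still differed from normal liver. Cyp1a2, Rhbg and Cyp2e1 fell and Axin2 rose, 4 of the 10 genes, a share of 40% beside 47.6% of all genes called (24.4% upward and 23.2% downward). Cyp1a2 averaged 292 ± 101 CPM in Smyd3-ASO and 1118 ± 286 CPM in untreated mice, 3.89-fold lower (log2 -1.959, SE 0.28, adjusted p = 9.834e-05, edgeR). Rhbg averaged 5.86 ± 2.52 CPM and 18.7 ± 5.69 CPM, 3.29-fold lower (log2 -1.72, SE 0.31, adjusted p = 6.005e-04). Cyp2e1 was 1.58-fold lower (log2 -0.66, SE 0.26, adjusted p = 0.047) and Axin2 1.963-fold higher (log2 0.97, SE 0.37, adjusted p = 0.0453), both at the edge of the threshold. Groups did not overlap for Cyp1a2 alone of the 10, beside 28.4% of all genes.

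The other 6 were not called against untreated mice. Glul stood at log2 -0.26 (95% interval -0.77 to 0.24), Oat at 0.05 (-0.41 to 0.52) and Slc1a2 at 0.17 (-0.80 to 1.15). Lgr5 stood at -0.60 (-1.38 to 0.19), Tbx3 at -0.09 (-0.75 to 0.56) and Rnf43 at 0.58 (-0.05 to 1.22). A p that misses the threshold does not show equality with untreated liver. The comparison shares its untreated mice with that of control ASO, where the values for Glul and Oat were -1.47 and -1.55.

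Leaving out single mice, Cyp2e1 ran from log2 -0.79 to -0.53 (adjusted p 0.0202 to 0.108, edgeR) and lost its call in 9 of 11 cases, keeping it without Smyd3-ASO mouse 1 or untreated mouse 5. Axin2 ran from 0.69 to 1.22 (adjusted p 0.0247 to 0.117) and lost its call in 7 of 11, keeping it without Smyd3-ASO mouse 3, 4 or 5 or untreated mouse 1. Rnf43 passed without Smyd3-ASO mouse 3 (0.76, adjusted p = 0.0219). With all mice, Cyp2e1 missed the threshold with RLE size factors, without the filter on low counts and with 1 fit over all groups (adjusted p = 0.0576, 0.0596 and 0.0797), and Axin2 with limma voom and 1 fit over all groups (0.151 and 0.0664). With library totals the median of all genes moved to log2 0.96 and 91.4% of calls were upward, against 51.2% with TMM. There 5 of the 10 were called higher and 2 lower. Glul at 0.59, Tbx3 at 0.80, Lgr5 at 0.33 and Cyp2e1 at 0.26 turned to the positive side, all below the shift of all genes. Of these, Lgr5 and Cyp2e1 were not called. Hepatocyte markers were lower for 5 of 6 genes, with a median of log2 -1.24, and summed to 17500 to 36000 CPM in Smyd3-ASO and 50000 to 102000 CPM in untreated mice. Of 6 clock genes 1 was higher and 3 lower, with sums of 44.3 to 94.8 CPM and 45.2 to 201 CPM. Bile duct markers were higher for 2 of 3. The part of these markers in the values was not tested.

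P133 against untreated sets younger DEN livers, before any ASO, against untreated livers of day 260. Slc1a2 rose, and Rhbg, Rnf43 and Tbx3 fell, 4 of the 10 genes, a share of 40% beside 31.6% of all genes called (15.1% upward and 16.6% downward). Slc1a2 averaged 73.9 ± 14.0 CPM in P133 (SD, n = 4) and 43.5 ± 7.89 CPM in untreated mice (n = 5), 1.70-fold higher (log2 0.77, SE 0.16, adjusted p = 0.00221, edgeR), with no overlap between the groups, as for 27.1% of all genes. Rhbg averaged 9.03 ± 1.73 CPM and 18.7 ± 5.69 CPM, 2.07-fold lower (log2 -1.05, SE 0.25, adjusted p = 0.00605). Rnf43 was 2.02-fold lower (log2 -1.02, SE 0.34, adjusted p = 0.0318) and Tbx3 1.65-fold lower (log2 -0.73, SE 0.26, adjusted p = 0.0448).

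Cyp2e1 (log2 -0.50, adjusted p = 0.0861, edgeR) and Cyp1a2 (-0.67, adjusted p = 0.0655) did not pass, and Glul was at 0.12 (95% interval -0.15 to 0.40), Oat at -0.20 (-0.65 to 0.25), Lgr5 at -0.35 (-0.93 to 0.23) and Axin2 at 0.09 (-0.83 to 1.01). Cyp1a2 passed without P133 mouse 2 (-0.995, adjusted p = 0.00756) or untreated mouse 5 (-0.81, adjusted p = 0.0218), and Cyp2e1 without untreated mouse 5 (-0.62, adjusted p = 0.00491). With all mice, Cyp1a2 passed with DESeq2 (adjusted p = 0.0486) and Cyp2e1 without the filter on low counts (0.0127). Tbx3 missed the threshold with DESeq2, limma voom and 1 fit over all groups (0.0522, 0.0813 and 0.203), Rnf43 with limma voom (0.0659) and Slc1a2 with 1 fit over all groups (0.246). Rnf43 lost its call without P133 mouse 1, 2 or 4 or untreated mouse 3 (adjusted p 0.077 to 0.0837), and Tbx3 without P133 mouse 2, 3 or 4 or untreated mouse 2, 3 or 4 (adjusted p 0.0504 to 0.133). With library totals the median of all genes moved to log2 0.59 and 88.7% of calls were upward, against 47.7% with TMM. There Slc1a2 and Glul (0.72) were higher, none was lower, and Oat (0.39), Cyp2e1 (0.09) and Lgr5 (0.25) changed sign. Hepatocyte markers were lower for 4 of 6 genes and summed to 38300 to 41100 CPM in P133 and 50000 to 102000 CPM in untreated mice. Of 6 clock genes Arntl was higher (log2 4.49) and Dbp (-4.55) and Nr1d1 (-4.35) were lower, with sums of 40.3 to 68.6 CPM and 45.2 to 201 CPM. Their part in the values was not tested.

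Control-ASO and P133 mice differ in both age and ASO, which cannot be told apart. Against P133 mice, the control-ASO livers differed in 5 of the 10 genes, a share of 50% beside 27% of all genes called (14.4% upward and 12.6% downward). Of these 5, Rnf43 rose and the other 4 fell. Cyp1a2 was 5.56-fold lower (log2 -2.48, SE 0.56, adjusted p = 0.0112, edgeR), Slc1a2 3.08-fold (log2 -1.62, SE 0.31, adjusted p = 0.00311), Glul 3.00-fold (log2 -1.58, SE 0.32, adjusted p = 0.004) and Cyp2e1 2.57-fold (log2 -1.36, SE 0.35, adjusted p = 0.0144). Rnf43 averaged 6.64 ± 1.80 CPM in control-ASO and 2.23 ± 0.586 CPM in P133 mice, 2.98-fold higher (log2 1.58, SE 0.27, adjusted p = 8.478e-04). These 5 were also the genes whose groups did not overlap, beside 21.3% of all genes. Oat (-1.34) and Lgr5 (-1.20) did not pass, but did without control-ASO mouse 3, at -1.75 (adjusted p = 0.00715) and -1.61 (adjusted p = 0.0231). With all mice, Oat passed with DESeq2, limma voom and 1 fit over all groups (adjusted p = 0.00608, 0.019 and 0.0132), and Cyp2e1 missed the threshold without the filter on low counts (0.064). With library totals the median of all genes moved to log2 0.28 and 79.6% of calls were upward, against 53.3% with TMM, and the same number of the 10 was called in each direction. Of 6 clock genes 3 were higher, with sums of 55.5 to 253 CPM in control-ASO and 40.3 to 68.6 CPM in P133 mice, and 1 of 6 hepatocyte markers was higher. Their part in the values was not tested.

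Smyd3-ASO and P133 mice also differ in both age and ASO. Smyd3-ASO against P133 called 2 of the 10 genes, 20% beside 24.8% of all genes (13.1% upward and 11.7% downward). Cyp1a2 averaged 292 ± 101 CPM in Smyd3-ASO and 701 ± 286 CPM in P133 mice, 2.42-fold lower with no overlap (log2 -1.27, SE 0.31, adjusted p = 0.0109, edgeR), as for 19.3% of all genes. Rnf43 averaged 6.88 ± 2.37 CPM and 2.23 ± 0.586 CPM, 3.08-fold higher (log2 1.62, SE 0.36, adjusted p = 0.00731). The other 8 ran from log2 -0.65 for Rhbg to 0.90 for Axin2, and Rhbg passed without Smyd3-ASO mouse 6 (-0.82, adjusted p = 0.0474). With library totals the median of all genes moved to log2 0.34 and 82.1% of calls were upward, against 53% with TMM, and Cyp2e1 (0.18) and Lgr5 (0.07) changed sign. Rnf43 missed the threshold with limma voom (adjusted p = 0.0795). Hepatocyte markers were lower for 4 of 6 genes, with sums of 17500 to 36000 CPM in Smyd3-ASO and 38300 to 41100 CPM in P133 mice, and of 6 clock genes 2 were higher and 1 lower. Their part in the values was not tested.

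**Figure D3:**
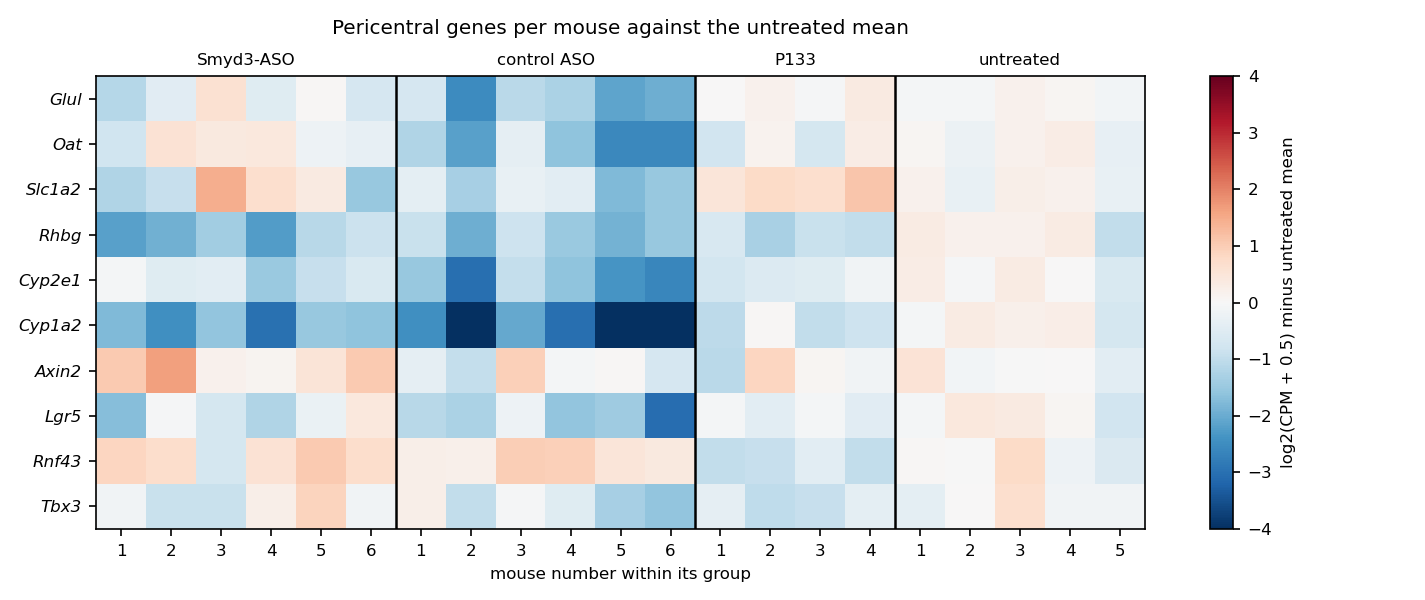
Each mouse (columns, grouped) and each of the 10 genes (rows), coloured by log2(CPM + 0.5) minus the mean of the untreated mice, from blue (lower) to red (higher), with the scale ending at -4 and 4. Control-ASO mice 2, 5 and 6 are the darkest blue for Cyp1a2, while Axin2 and Rnf43 are mostly red in Smyd3-ASO mice; with library totals the untreated level is lower and these colours shift toward red.

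Some mice stood at the top or bottom of their group in many of the 10 genes. In the Smyd3-ASO group mouse 5 was the highest of 6 in 3 genes and mouse 4 the lowest in 4. Control-ASO mouse 3 was the highest of its 6 in 8 of the 10 genes, mouse 2 the lowest in 5 and mouse 6 the lowest in 4. Of the 4 P133 mice, mouse 1 was the lowest in 6 genes and the highest in 3, and mouse 4 the highest in 4. In the untreated group mouse 5 was the lowest of 5 in 8 of the 10 genes and mouse 3 the highest in 5. Within control-ASO mice the SD was 71.5% of the mean for Cyp1a2 and 67.5% for Oat, against 34.7% and 34.6% in Smyd3-ASO mice and 25.6% and 18.2% in untreated mice. For Slc1a2 the order differed, with 80.3% in Smyd3-ASO, 43.0% in control-ASO and 18.1% in untreated mice.

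The 4 groups were also read for how they pair. Smyd3-ASO with P133 separated fully from control ASO with untreated for 177 of the 15297 genes and for 0 of the 10. Both ASO groups separated fully from both groups without ASO for 419 genes, among them 1 of the 10, Cyp1a2. Smyd3-ASO with untreated separated from control ASO with P133 for 82 genes and again 0 of the 10.

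Other genes of the Wnt pathway were read from a list of 49, of which 37 passed the filter. Under Smyd3-ASO against control ASO 3 rose and 6 fell, 24.3% called beside 26.1% of all genes (13.3% upward and 12.9% downward), a share near the background, with a median of log2 -0.14. Of the ligands, Wnt2, made by endothelium at the central vein, was at log2 1.43 (SE 0.35, adjusted p = 0.00849, edgeR) and rose, while Wnt5a, a ligand best known for signalling without beta-catenin, fell (log2 -2.15, SE 0.49, adjusted p = 0.00616). Rspo3, the R-spondin of the central vein, did not pass (log2 0.84). Of 9 receptors Fzd7 rose (log2 0.85), Fzd5 (-0.87) and Fzd8 (-1.59, SE 0.32, adjusted p = 0.00319) fell and 6 did not pass. Ctnnb1, which encodes beta-catenin, averaged 179 CPM in Smyd3-ASO and 277 CPM in control-ASO mice and fell (log2 -0.64, SE 0.13, adjusted p = 0.00317). Among nuclear partners, Tcf7l1, a repressive TCF, fell (log2 -1.17, SE 0.24, adjusted p = 0.00294), as did Tcf7 (-1.04), and of the inhibitors Nkd1 rose (0.87). Wnt2, Rspo3, Fzd5, Fzd7, Tcf7 and Nkd1 are named for these counts after their values were seen. Some of these genes rest on few reads. Wnt5a had 0 to 23 counts in a Smyd3-ASO mouse and 12 to 40 in a control-ASO mouse. In the same order Wnt2 had 57 to 218 and 9 to 39, Tcf7 5 to 23 and 9 to 26, and Nkd1 10 to 63 and 5 to 14. Markers of endothelium, the source of the ligands (7 genes), summed to 135 to 163 CPM in Smyd3-ASO and 155 to 213 CPM in control-ASO mice, with 3 of 7 lower, and their part in these values was not tested.

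Under control ASO against untreated, 8 of the 37 Wnt pathway genes rose and 5 fell, 35.1% called beside 45.9% of all genes, with a median of log2 -0.0026. The receptor Fzd5 rose (log2 1.40, SE 0.20, adjusted p = 6.584e-05, edgeR). In the beta-catenin group 4 of 7 rose, namely Apc, a scaffold of the destruction complex (log2 0.73, SE 0.13, adjusted p = 4.586e-04), Gsk3b (0.53), Axin1 (0.42) and Ctnnb1 (0.41), and the kinase Gsk3a fell (-0.82, SE 0.14, adjusted p = 2.331e-04). Notum, a secreted enzyme that inactivates Wnt ligands, fell (-1.08, SE 0.21, adjusted p = 8.519e-04). Nkd1, another inhibitor, also fell (-1.49). Of the 4 ligands measured Wnt2 (-1.13) and Wnt4 (-1.44) fell and Wnt5a rose (1.80). Gsk3b, Axin1, Ctnnb1, Nkd1 and these ligands are named here after their values were seen. With library totals 24 of the 37 rose and none fell, next to the shift of all genes, and Gsk3a was at 0.02.

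Of 23 other pericentral genes, all measured, 11 rose and none fell under Smyd3-ASO against control ASO, 47.8% called beside 26.1% of all genes, with a median of log2 0.94. Cyp27a1, a sterol hydroxylase, rose by log2 1.93 (SE 0.16, adjusted p = 7.993e-06, edgeR), and Ahr, the aryl hydrocarbon receptor that drives Cyp1a2, by 1.21 (SE 0.23, adjusted p = 0.00227). The glutathione transferase Gstm2 rose by 1.84 (SE 0.42, adjusted p = 0.0071) and the dicarboxylate carrier Slc13a3 by 1.31 (SE 0.35, adjusted p = 0.0155). Leaving out control-ASO mouse 5 or mouse 6 left 7 of the 23 called. In control ASO against untreated 15 fell and none rose, 65.2% called beside 45.9% of all genes, with a median of -0.98, among them Cyp27a1 (-2.04, SE 0.16, adjusted p = 4.697e-07), Gstm2 (-1.60), Pon1, paraoxonase (-2.46), and Rgn, regucalcin (-1.80). With library totals 6 fell and 2 rose. Gstm2 has close relatives in its gene family, so its reads may have been shared among them.

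Of 21 periportal genes none rose and 6 fell under Smyd3-ASO against control ASO, 28.6% called beside 26.1% of all genes, with a median of log2 -0.09. With 1 fit over all groups 4 rose and 6 fell. Cyp17a1, a steroid hydroxylase, averaged 2.94 CPM in Smyd3-ASO and 26.3 CPM in control-ASO mice (log2 -3.15, SE 0.75, adjusted p = 0.0103, edgeR), and Hsd17b6 (-1.02), Cdh1, E-cadherin (-1.11), and Aldh1b1 (-1.06) also fell. In control ASO against untreated 10 fell and 3 rose, 61.9% called beside 45.9% of all genes, with a median of -0.52. The 3 that rose were Cdh1 (2.33), Hsd17b13, a lipid droplet protein (2.15), and Aldh1b1 (1.95), and the histidine-degrading Uroc1 fell (-1.26). So in that comparison the periportal list also had more falls than rises, while with library totals 7 rose and 4 fell.

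**Figure D4:**
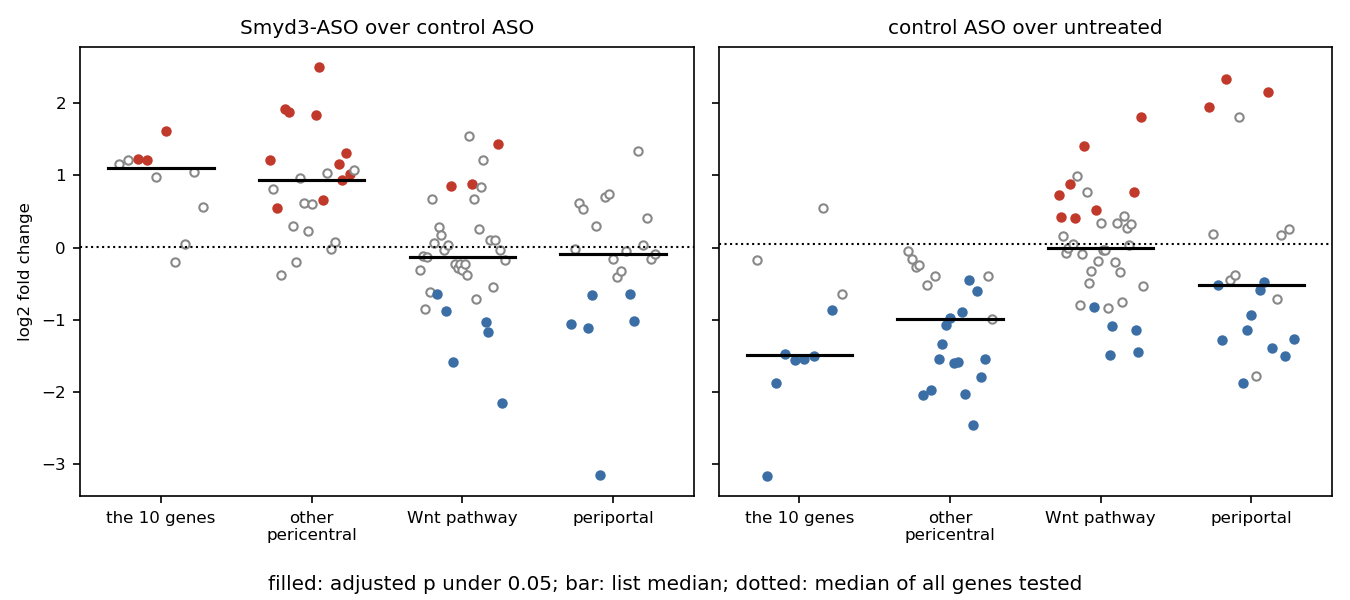
Log2 fold change of every measured gene of 4 lists in 2 comparisons, with filled points past an adjusted p of 0.05, a bar at each list's median and a dotted line at the median of all genes tested. Under Smyd3-ASO over control ASO the medians are 1.11 for the 10 genes, 0.94 for other pericentral, -0.14 for Wnt pathway and -0.09 for periportal genes; under control ASO over untreated they are -1.49, -0.98, -0.0026 and -0.52, where library totals shift all genes up by 0.90.

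The genes whose levels followed each of the 10 most closely over the 21 mice were listed by Pearson correlation of log2 CPM, as a description in which group differences and scaling are shared by all genes. For Glul these were Ugt3a2 (0.932), Gulo (0.926) and Sod2 (0.918), and for Oat Dera, Gulo and Acss2 (0.881 to 0.882). Cyp2e1 was closest to Rgn (0.943), Hibadh and Mgll, and Cyp1a2 to Sult2a8 (0.956), Rgn (0.954) and Abcb10. Rhbg was closest to Ndufs7 (0.947), Akap14 and Atp5b, and Slc1a2 to Synj2bp (0.887), Scarb2 and Ttc7b. The sparser genes had weaker partners, with Gngt1 (0.794), Spc24 and Prkra for Axin2, Cmbl (0.874), Adh6-ps1 and Abcf2 for Lgr5, Dnmt3a (0.821), Arrdc3 and Dyrk2 for Rnf43, and Lap3, Sult5a1 and Mup6 (0.755 to 0.766) for Tbx3.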

How the data were processed

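Liver RNA of 21 mice was sequenced as 35 libraries with the QuantSeq 3' FWD kit, per the labels' protocols. HISAT2 2.1.0, DESeq and the mm10 genome are named in the submitters' processing notes, and the counting program and annotation are not given in the sources used here. The authors deposited whole-number read counts of 55413 Ensembl genes, with the libraries of an ASO mouse summed into 1 column. No 2 mice had identical columns (highest correlation between mice 0.9733). Replicates are labelled as biological replicates. The deposited normalized table was not used.

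Symbols and positions came from GENCODE vM21. Genes were kept with filterByExpr over the 4 groups (15297). Fits used edgeR 4.0.16 (R 4.3.3; TMM, robust quasi-likelihood, two-sided) and only the mice of the 2 groups compared, adjusted by Benjamini-Hochberg over all genes kept, with SE = |log2 change| divided by the square root of F. DESeq2 1.42.0, limma 3.58.1 voom, other scalings, no filter, 1 fit over all groups, a replicate block and leaving out each mouse were alternatives. The fit was tested on simulated data. Members and lists were chosen with earlier results of these data known. Besides the 10 genes, the 4 list members with the smallest adjusted p in Smyd3-ASO over control ASO and in control ASO over untreated are named, and the 3 genes closest to each of the 10.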

Additional observations from a re-analysis of the deposited data

Results flagged for a closer look

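Of 40 sets of values (10 genes in 4 groups), 4 held a mouse whose gap to its nearest neighbour was large against the range of its group, where chance gives about 1 in 20. Control-ASO mouse 3 had Axin2 at 3.27 CPM, against 0.495 to 1.503 CPM in the other control-ASO mice. P133 mouse 2 had Cyp1a2 at 1127 CPM, against 522 to 609 CPM in the other P133 mice. P133 mouse 3 had Rnf43 at 3.11 CPM, against 1.89 to 2.04 CPM in the others. Untreated mouse 5 had Rhbg at 8.69 CPM, against 20.1 to 22.2 CPM in the other untreated mice.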

How the results depend on the processing

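These are calls and signs that other settings moved, beside those given with each comparison. In Smyd3-ASO over control ASO 5 of the 10 genes were called, all up, with DESeq2, with limma voom and with 1 fit over all groups. In each, Cyp1a2 and Axin2 joined the other 3. The share of all genes called under these settings is not given here. With limma voom Rnf43 was at log2 -0.016, and with 1 fit over all groups 10 periportal genes were called, 4 up and 6 down. With library totals Cyp1a2 passed (adjusted p = 0.045, edgeR). In control ASO over untreated, library totals gave 24 Wnt pathway and 8 other pericentral genes called, and 10723 genes called in all. On that scale Axin2 (0.65), Tbx3 (0.21) and Gsk3a (0.024) changed sign without a call. Notum was no longer called (adjusted p = 0.273, edgeR). In Smyd3-ASO over untreated 7 of the 10 were called with library totals, 5 up and 2 down. On that scale Glul (0.59) and Tbx3 (0.80) changed sign and were called. Cyp2e1 (0.26) and Lgr5 (0.33) changed sign without a call. In the same comparison 2 were called with 1 fit over all groups and 2 with the replicate block. There limma voom put Oat at -0.0256 and Slc1a2 at -0.21. In P133 over untreated 2 of the 10 were called with library totals, 2 with limma voom and 2 with 1 fit over all groups. With library totals Oat (0.39), Cyp2e1 (0.0856) and Lgr5 (0.25) changed sign without a call. Axin2 was at -0.0843 with limma voom and -0.12 with the replicate block. Tbx3 was at -0.0582 in control ASO over P133 with limma voom. In Smyd3-ASO over P133 1 was called with limma voom, and library totals put Cyp2e1 at 0.18 and Lgr5 at 0.0729. The cause was not tested in any of these. Of the values of single genes over all settings, 1385 kept direction and side of the threshold, 56 lost a call, 33 gained one and 39 changed sign.

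Leaving out each mouse gave 3 to 5 of the 10 called in Smyd3-ASO over control ASO, 6 to 8 in control ASO over untreated, 2 to 4 in Smyd3-ASO over untreated, 2 to 6 in P133 over untreated, 5 to 7 in control ASO over P133 and 2 to 3 in Smyd3-ASO over P133, and 7 to 12 other pericentral genes in the first. Signs turned for Rnf43 in the first (-0.0642 to 0.225), Axin2 in the second (-0.586 to 0.0774), Oat (-0.0615 to 0.181), Slc1a2 (-0.29 to 0.36) and Tbx3 (-0.37 to 0.12) in the third, Axin2 in the fourth (-0.46 to 0.38), and Tbx3 (-0.16 to 0.25) and Axin2 (-0.66 to 0.31) in the fifth, none of them called.

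The labels do not say whether replicate numbers pair the mice, and the main fits did not pair them. Same-numbered mice deviated together in only 1 pair above 0.1 (correlations -0.12 to 0.112). With so few mice per group this cannot exclude a shared batch. With the replicate block Gstm2 in the first comparison (adjusted p = 0.0504), Cyp2e1 (0.0515) and Axin2 (0.0766) in Smyd3-ASO over untreated, Tbx3 (0.0772) in P133 over untreated and Cyp1a2 (log2 -2.193, 0.121) in control ASO over P133 missed the threshold. Cyp1a2 (0.00274) and Cyp2e1 (0.0202) in P133 over untreated and Rhbg (0.0204) in Smyd3-ASO over P133 passed it. The replicate block called 2543 genes in control ASO over P133, against 4131 without it, and leaving out P133 mouse 2 called 2519 in Smyd3-ASO over P133, against 3794. Library totals called 7292 in P133 over untreated, against 4839. Axin2 and Lgr5 rest on few counts, down to 1 in a mouse, which limits their precision.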
